A study of Mus musculus with 5 samples.

Results

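The BCL2 family of survival and death genes was described in lung ILC2s of mice with and without IL-33. The members were taken by name: Bcl2, Bcl2l1, Mcl1, Bcl2l11, Bad, Bid, Bbc3, Pmaip1, Bax and Bak1. A member was measured by a probe set that the platform annotation pairs with its symbol alone, and where a gene had several such probe sets the brightest on average was used. This gave 9 of the 10 members out of 22180 genes, while Bax was not analysed here. Arrays of 2 biological replicates came from naive adult male IL-33 knockout mice (IL-33KO), and arrays of 3 biological replicates from naive adult male wild-type mice (WT). Every array held total RNA of ILC2s isolated from lung. The sources used here do not give the knockout allele, the strain, the exact age, the sorting gate or any pooling of animals.

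ILC2s are tissue-resident lymphocytes that answer alarmins such as IL-33 and depend for survival on cytokines such as IL-7. Proteins of the BCL2 family decide whether the outer mitochondrial membrane stays intact. Pro-survival members bind and hold back the effectors BAX and BAK, and the BH3-only members, which share with the rest of the family little more than one short helix, either occupy the pro-survival proteins or engage the effectors directly. Once the effectors form pores, cytochrome c leaves the mitochondrion and caspases are activated. Much of this control acts on the proteins, by phosphorylation, cleavage and degradation, and is not seen in transcript signals.

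The 5 arrays had similar distributions, with medians of 4.30 and 4.33 in IL-33KO and 4.29 to 4.32 in WT on the log2 scale. Their number limits the precision of every value. Over all probe sets the IL-33KO arrays had a Pearson correlation of 0.893 with each other, below the 0.929 to 0.933 among WT arrays. Across genotypes the correlations were 0.894 to 0.918, highest for IL-33KO replicate 1 with WT replicate 3. Of 15 ILC2 markers 13 were measured, and all 13 lay above the median gene (4.48), with list means of 8.45 and 8.48 in IL-33KO and 8.44 to 8.66 in WT. T cell markers averaged 5.09 and 5.06 in IL-33KO and 5.12 to 5.16 in WT, and B cell markers 4.18 and 4.25 in IL-33KO and 4.09 to 4.19 in WT. Endothelium and fibroblast markers averaged 4.63 and 4.98 in IL-33KO and 4.44 to 4.55 in WT, and mast cell and eosinophil markers 4.26 and 4.29 in IL-33KO and 3.95 to 4.06 in WT. NK and ILC1 markers averaged 4.06 and 4.45 in IL-33KO and 3.91 to 4.10 in WT. Macrophage and dendritic cell markers averaged 3.96 and 3.95 in IL-33KO and 3.71 to 4.24 in WT, and neutrophil markers 4.33 and 3.75 in IL-33KO and 3.52 to 4.19 in WT. Epithelium markers averaged 5.59 and 4.82 in IL-33KO against 4.33 to 4.50 in WT, with 7 of 10 above the median gene. The groups did not overlap for 5 of 10 epithelium markers and 4 of the 7 tested endothelium and fibroblast markers. Of the 13 ILC2 markers, 3 were higher and 2 lower in IL-33KO without overlap. Among these, Icos read 8.28 and 8.55 in IL-33KO and 7.07 to 7.28 in WT. Ptprc read 9.83 and 9.46 in IL-33KO and 9.87 to 10.33 in WT. Of 7 T cell markers, 1 was higher and 1 lower without overlap, and of 7 B cell markers 1 was higher. The share without overlap over all genes tested was 18.0%. The part of these markers in the results below was not tested. The signal of Xist, a transcript of the inactive X chromosome, was 3.10 in IL-33KO replicate 1 and 7.91 in IL-33KO replicate 2. In WT it was 2.35 to 3.10, so by Xist alone IL-33KO replicate 2 goes against its male label. Y-linked transcripts were not examined. Differences of the genes named are therefore also given without IL-33KO replicate 2. Those values rest on IL-33KO replicate 1 alone, the array with the highest mean of epithelium markers (5.59). Il33 itself read 3.79 and 3.95 in IL-33KO and 3.37, 3.39 and 3.32 in WT, higher in both IL-33KO arrays than in every WT array. Its mean over the 5 arrays lay below the filter limit, so it was not tested. The deleted part of the gene and the position of the probes are not stated in the labels, and Il33 was not used as a check of the genotype.

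No member of the family passed the test for a difference between genotypes. With limma over 16635 genes, 0 of 9 members had an adjusted p below 0.05, against 0% of all genes tested, and 0 of 9 had an unadjusted p below 0.05, against 7.64% of all genes tested. Adjusted p of the members ran from 0.623 to 0.985. Differences, IL-33KO minus WT on the log2 scale, were above 0 for 3 members and below 0 for 6 (4 and 5 after quantile normalization, where Pmaip1 turned), while 57.1% of all genes tested were above 0. The members' median difference was -0.09, beside 0.04 over all genes tested. In this fit the 95% intervals of the 9 differences all lay between -0.95 and 0.78, inside a 2-fold difference (1 log2 unit) in either direction. That limit depended on the fit. With weighted arrays the interval was -1.27 to 0.70 for Bcl2l1, -1.08 to 0.61 for Bcl2l11 and -1.13 to 1.07 for Pmaip1. With a block for the replicate number it was -1.08 to 0.60 for Bcl2 and -0.49 to 1.05 for Bad. For Pmaip1 it was -2.03 to 1.91 with that block. Without WT replicate 1 it was -1.21 to 0.42 for Bcl2 and -1.10 to 0.68 for Bcl2l1. In that fit it was -1.12 to 0.45 for Bcl2l11 and -0.78 to 1.13 for Bak1. A two-sided exact permutation test over the 10 splits of the 5 arrays cannot go below p = 0.1 for a single gene. In arrays of sorted cells, fewer cells carrying a transcript and less of it per cell cannot be told apart.

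**Figure D1:**
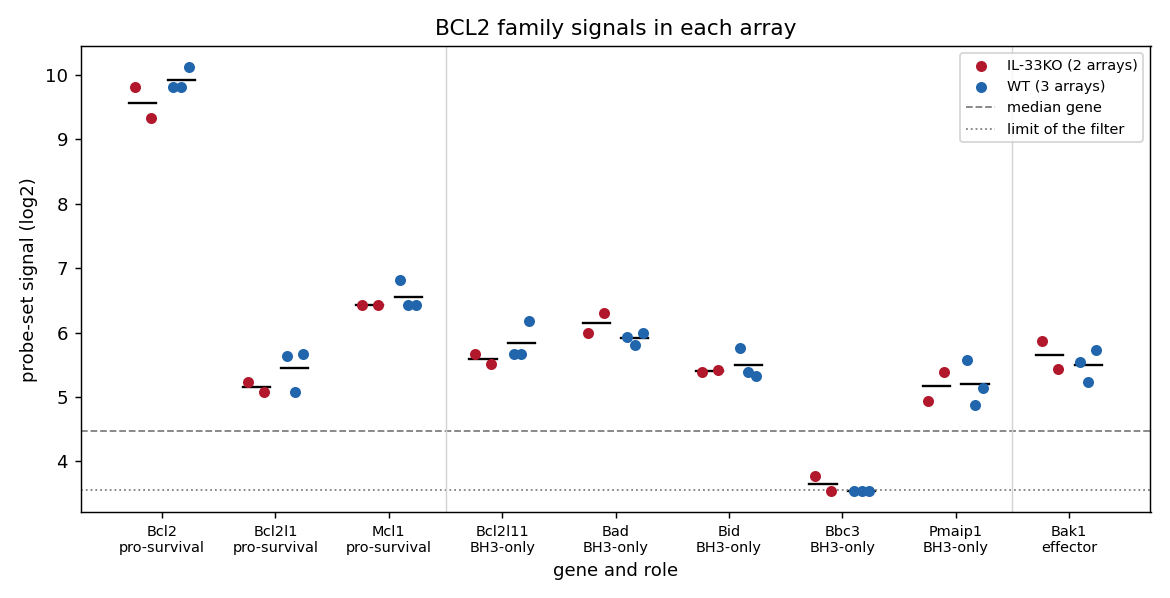
Probe-set signal (log2, y axis) of the 9 measured genes, grouped by role, in each IL-33KO array (red) and each WT array (blue), with black bars at the group means; dashed and dotted lines mark the median gene (4.48) and the limit of the filter on dim genes (3.56). The red and blue points of every gene overlap or touch, and Bbc3 lies at the limit.

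The 3 pro-survival genes all had lower means in IL-33KO, by amounts within or close to the spread of the arrays. Bcl2 encodes the protein that gave the family its name and guards lymphocytes downstream of IL-7. Its signal was 9.81 and 9.33 in IL-33KO and 9.81, 9.81 and 10.12 in WT. IL-33KO replicate 2 was below every WT array, and replicate 1 was exactly equal to the lowest of them, so the groups touched. The difference was -0.34 (SE 0.20, 95% interval -0.90 to 0.21, limma adjusted p = 0.623). It was -0.11 without IL-33KO replicate 2 and -0.58 without IL-33KO replicate 1, so most of it came from the array with the high Xist signal. With its probe sets averaged it was -0.19. A second, dim probe set of Bcl2 averaged 3.62 in IL-33KO and 3.66 in WT.

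Bcl2l1 encodes BCL-XL, a pro-survival protein whose gene is a known target of STAT5 and NF-kB. Its signal was 5.24 and 5.07 in IL-33KO and 5.64, 5.07 and 5.66 in WT. Both IL-33KO arrays lay below WT replicates 1 and 3, but WT replicate 2 was as low as the lower IL-33KO array, and the groups overlapped. The difference was -0.30 (SE 0.23, 95% interval -0.95 to 0.34, limma adjusted p = 0.628), smaller than the range of 0.59 among WT arrays. Without WT replicate 2 it was -0.49, with no overlap and a limma adjusted p of 0.694. It was -0.22 without IL-33KO replicate 2.

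Mcl1 encodes a short-lived pro-survival protein that is degraded by the proteasome. Its signal was 6.42 in both IL-33KO arrays and 6.81, 6.42 and 6.42 in WT. The same value stood in 4 of the 5 arrays, and WT replicate 1 alone was higher. The difference of -0.13 (SE 0.15, 95% interval -0.55 to 0.30) therefore rested on that 1 array and was 0 without it. It stayed at -0.13 without IL-33KO replicate 2. A dimmer probe set of Mcl1 showed the same form, with 4.44 in both IL-33KO arrays and 4.44, 4.63 and 4.44 in WT, where WT replicate 2 was the higher array.

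Of the 5 BH3-only genes, 2 had higher and 3 had lower means in IL-33KO, of which Pmaip1 turned to 0.0223 after quantile normalization. Bcl2l11 encodes BIM, which binds all pro-survival members and removes lymphocytes deprived of cytokine. Its signal was 5.66 and 5.51 in IL-33KO and 5.66, 5.66 and 6.18 in WT. IL-33KO replicate 1 equalled the lower WT arrays, replicate 2 was slightly below them, and WT replicate 3 stood above all. The difference was -0.25 (SE 0.21, 95% interval -0.83 to 0.33, limma adjusted p = 0.642), and without WT replicate 3 it was -0.08. It was -0.17 without IL-33KO replicate 2.

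Bad encodes a BH3-only protein that binds BCL2 and BCL-XL and is held in the cytosol by 14-3-3 proteins when survival kinases phosphorylate it. Its signal was 5.997 and 6.30 in IL-33KO and 5.93, 5.81 and 5.997 in WT. IL-33KO replicate 2 was above every WT array and replicate 1 was equal to the highest of them. The difference of 0.24 (SE 0.12, 95% interval -0.11 to 0.58, limma adjusted p = 0.623) had the smallest unadjusted p of the members, 0.129. It was 0.08 without IL-33KO replicate 2 and 0.39 without IL-33KO replicate 1. A further probe set, annotated to Gpr137 and Bad together and singled out after its values were seen, read 5.29 and 5.25 in IL-33KO and 5.13 in each WT array. Its groups did not overlap, but it cannot be assigned to either gene.

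Bid encodes a BH3-only protein that caspase-8 cleaves, linking death receptors to the mitochondrion. Its signal was 5.39 and 5.42 in IL-33KO and 5.76, 5.38 and 5.33 in WT. The IL-33KO arrays lay inside the WT range, and WT replicate 1 alone was higher. The difference was -0.09 (SE 0.16, 95% interval -0.53 to 0.36) and 0.05 without WT replicate 1. It was -0.10 without IL-33KO replicate 2.

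Bbc3 encodes PUMA and Pmaip1 encodes NOXA, both BH3-only proteins induced by p53. The signal of Bbc3 was 3.77 and 3.54 in IL-33KO and 3.54 in all 3 WT arrays, with the same value in 4 of the 5 arrays. IL-33KO replicate 1 alone was higher, which gave a difference of 0.11 (SE 0.08, 95% interval -0.12 to 0.35). The gene's mean lay 0.02 above the filter limit of 3.56, and the WT mean of 3.54 lay below it, so Bbc3 was tested only because of that array. Without IL-33KO replicate 2 the difference was 0.23, which sets that 1 array against equal WT values and is given as a value only.

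The signal of Pmaip1 was 4.94 and 5.39 in IL-33KO and 5.58, 4.87 and 5.14 in WT. Both IL-33KO arrays fell inside the WT range, which at 0.71 was the widest of the members. The difference was -0.03 (SE 0.28, 95% interval -0.81 to 0.75, limma adjusted p = 0.985). It took opposite signs with either IL-33KO array alone, -0.26 without replicate 2 and 0.19 without replicate 1.

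Of the effectors, Bak1 was measured, which encodes the pore-forming protein BAK. Its signal was 5.87 and 5.44 in IL-33KO and 5.54, 5.23 and 5.73 in WT. IL-33KO replicate 1 was the highest array, while replicate 2 lay inside the WT range. The difference was 0.16 (SE 0.22, 95% interval -0.47 to 0.78, limma adjusted p = 0.767). It was 0.37 without IL-33KO replicate 2 and -0.06 without IL-33KO replicate 1.

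**Figure D2:**
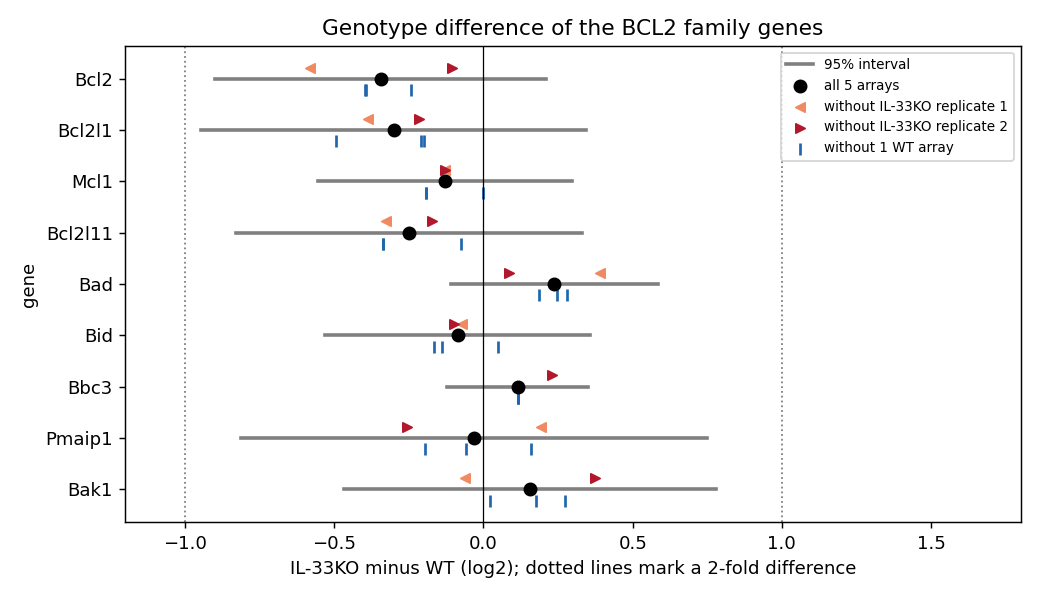
Difference, IL-33KO minus WT (log2, x axis), of each gene with all 5 arrays (black points) and its 95% interval (grey bars), and with 1 array left out (triangles for an IL-33KO array, ticks for a WT array; Bbc3 was too dim for testing without IL-33KO replicate 1). Every interval shown spans 0 and lies inside the dotted lines at a 2-fold difference, which did not hold in every other fit. The triangles of Pmaip1 and Bak1 fall on both sides of 0.

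For none of the 9 members did both IL-33KO arrays lie strictly above or strictly below all WT arrays, against 18.0% of all genes tested. Counting groups that only touch at an equal value, IL-33KO lay at or below all WT arrays for Bcl2, Mcl1 and Bcl2l11 (3 of 9 members, against 16.8% of all genes tested) and at or above them for Bad and Bbc3 (2 of 9, against 30.7%). In either direction this was 5 of 9 members against 47.4% of all genes tested, a share near the background. Only 4 members, Bcl2l1, Bid, Pmaip1 and Bak1, had 5 distinct values, and Mcl1 and Bbc3 had 2. Over all genes tested 36.36% had 5 distinct values. For the other 5 members the overlap of the groups came from equal values. After quantile normalization of the deposited values, the groups no longer overlapped for Bcl2 and Bcl2l11, lower in IL-33KO, and Bad, higher in IL-33KO. These are 3 of 9 members against 30.7% of all genes tested under that normalization, a share near the background, and none of the 3 passed the test (limma adjusted p = 0.617, 0.670 and 0.617).

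The members varied from array to array in different combinations. The means over the 3 pro-survival genes were 7.16 and 6.94 in IL-33KO and 7.42, 7.10 and 7.40 in WT. IL-33KO replicate 2 was the lowest array for that group, and WT replicate 2 was below IL-33KO replicate 1. Over the 5 BH3-only genes the means were 5.15 and 5.23 in IL-33KO and 5.29, 5.05 and 5.24 in WT, with both IL-33KO arrays inside the WT range. For 5 of the 9 members the gap between the IL-33KO arrays was wider than the difference between genotypes, and for 6 the WT range was wider than that difference.

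**Figure D3:**
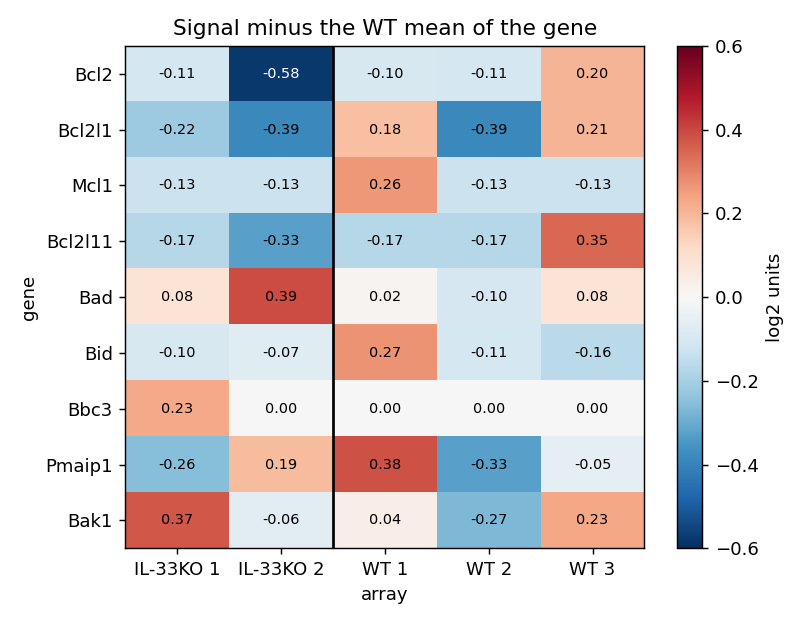
Signal of each gene (rows) in each array (columns) minus that gene's WT mean, in log2 units, with IL-33KO arrays left of the line. IL-33KO replicate 2 is lowest for Bcl2 (-0.58), and WT replicate 2 is as low for Bcl2l1 (-0.39) as IL-33KO replicate 2 is.

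Promoter sequence was read for the members to set beside these signals. RefSeq windows of 300 bases on GRCm38.p6, from 250 before to 50 after a start site, held 14 starts of 8 members. Median GC content was 65.8% in the member windows and 52.7% in all 32851 windows. Both strands were searched for 6 motifs, chosen after the values were seen. The NF-kB consensus was found in a window of Bcl2l1 and of Bbc3 and in 8.46% of all windows. The FOXO letters GTAAACA were found in a window of Bcl2l11 and of Bbc3 and in 3.65% of all windows. FOXO factors are known inducers of both of these genes when survival signals are withdrawn. GGGCGG, the GC box, was found in 9 of the 14 member windows and in 35.7% of all windows. Those 9 windows belong to 6 of the 8 members: Bcl2, Bcl2l11, Mcl1, Bid, Bbc3 and Bad. Windows of Bbc3 overlap in part and share sites, so the windows are not separate counts. The STAT letters TTCNNNGAA, the AP-1 letters TGANTCA and the TATA letters TATAAA were found in none of the 14 member windows and in 8.30%, 7.81% and 13.6% of all windows.

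The stretches of 60 bases with the NF-kB or FOXO letters are shown 5′ to 3′ on the gene's strand, with the match in capitals. IL-33 signals through NF-kB, and FOXO factors are restrained by survival cytokines, which is why these are shown. The stretch of Bcl2l1 lies at chr2:152830908-152830967 on the minus strand, with the match starting 242 bases before a start site. It lies inside the gene's span, which ends at 152833803, so that start is not the outermost one. Those of Bbc3 lie at chr7:16309421-16309480 and chr7:16310067-16310126 on the plus strand, 137 and 167 bases before 2 different starts. In the first of them the capitals span overlapping matches. Both Bbc3 stretches lie inside the gene's span, which begins at 16308398, so neither start is the outermost one. The stretch of Bcl2l11 lies at chr2:128125788-128125847 on the plus strand, with the match 227 bases before a start site. The gene has a further start, and the FOXO letters were not found in its window. A match of letters is a description and not a bound site.
Bcl2l1, NF-kB: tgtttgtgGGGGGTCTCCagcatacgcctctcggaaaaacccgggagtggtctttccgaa
Bbc3, NF-kB: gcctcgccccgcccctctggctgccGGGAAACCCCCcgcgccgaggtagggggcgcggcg
Bcl2l11, FOXO: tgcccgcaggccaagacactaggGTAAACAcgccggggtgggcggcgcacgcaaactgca
Bbc3, FOXO: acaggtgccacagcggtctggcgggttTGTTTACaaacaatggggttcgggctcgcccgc

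The 9 genes lie on 8 chromosomes. On GRCm38.p6, Bcl2l11 spans 128126038 to 128162547 and Bcl2l1 spans 152758732 to 152833803, both on chromosome 2. Bcl2 spans 106538176 to 106714290 on chromosome 1, the longest of the member genes.

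Beyond the members, 11 further BCL2 family genes were tested, and none passed. Their median difference was 0.06, with 7 above and 4 below 0 (8 and 3 after quantile normalization, where Bik turned). The groups did not overlap for 1 of the 11 (9.09%, against 18.0% of all genes tested). By rule, Bnip1 was named, which encodes a SNARE protein of the endoplasmic reticulum with a BH3-like stretch. Its signal was 3.60 and 3.70 in IL-33KO and 4.28, 4.44 and 4.53 in WT. Both IL-33KO arrays lay below every WT array, with a difference of -0.77 (SE 0.10, limma adjusted p = 0.402), at a signal below the median gene. It was -0.82 without IL-33KO replicate 2. The other family genes were named after their values were seen, and for all of them the groups overlapped or touched. Bcl2a1a, of the A1 pro-survival genes that NF-kB induces, read 4.86 and 5.82 in IL-33KO and 5.82, 5.88 and 5.82 in WT. IL-33KO replicate 1 alone was low, and the near-identical A1 copies make the gene's signal uncertain. Its difference of -0.50 (SE 0.31) was -0.97 without IL-33KO replicate 2, with a limma adjusted p of 0.0353, in a fit that called 413 genes. Bnip3, a mitophagy receptor gene, read 5.57 and 4.39 in IL-33KO and 3.62, 4.39 and 4.39 in WT, so that IL-33KO replicate 1 was high and WT replicate 1 low. Its difference was 0.85, with 1.44 without IL-33KO replicate 2 and 0.26 without IL-33KO replicate 1. Bok, Bcl2l2, Bmf, Bcl2l15, Bcl2l13, Bnip2, Bcl2a1c and Bik had differences of -0.10 to 0.28, and of -0.22 to 0.52 without IL-33KO replicate 2.

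The machinery downstream of the family showed single genes that stood apart, and none of them passed. Of 17 genes of the mitochondrial pathway, caspases and their inhibitors, 10 were above and 6 below 0 (9 and 8 after median centring), with a median of 0.02. The groups did not overlap for 2 of the 17 (11.8%, against 18.0% of all genes tested). Dffa, which encodes the inhibitor of the caspase-activated DNase, read 6.51 and 6.49 in IL-33KO and 6.32, 6.32 and 6.23 in WT, a difference of 0.21 (SE 0.05, limma adjusted p = 0.517). Both its IL-33KO arrays lay above all WT arrays, and without IL-33KO replicate 2 the difference was 0.22. Cycs, the gene for cytochrome c, named after its values were seen, read 9.77 and 10.20 in IL-33KO and 9.75, 9.75 and 9.42 in WT (difference 0.35, limma adjusted p = 0.623). Its difference was 0.14 without IL-33KO replicate 2 and 0.56 without IL-33KO replicate 1.

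Of 10 death receptor pathway genes, 6 were above and 4 below 0, with a median of 0.03. The groups did not overlap for 3 of the 10, against 18.0% of all genes tested. The ligand gene Tnfsf10 read 5.04 and 4.29 in IL-33KO and 6.75, 6.07 and 6.49 in WT. Tnfrsf10b, the gene for its receptor in the mouse, read 8.25 and 7.15 in IL-33KO and 5.88, 7.06 and 7.02 in WT. The ligand was lower and the receptor higher in both IL-33KO arrays than in every WT array, with differences of -1.76 and 1.04 and limma adjusted p of 0.443 and 0.623, and the receptor was named after its values were seen. Without IL-33KO replicate 2 the ligand differed by -1.39 and the receptor by 1.59, and without replicate 1 by -2.14 and 0.49. Tnfrsf1a, a receptor for TNF, differed by 0.45 (SE 0.13, limma adjusted p = 0.564) without overlap, and by 0.31 without IL-33KO replicate 2. Its means of 4.35 in IL-33KO and 3.90 in WT lay below the median gene (4.48).

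Among regulators of the members, Ywhaz had the smallest p of 10 genes that control the turnover or placement of MCL1, BIM and BAD. It encodes a 14-3-3 protein, of the class that holds phosphorylated BAD in the cytosol. Its signal was 11.94 and 11.70 in IL-33KO and 10.84, 10.71 and 11.21 in WT. Both IL-33KO arrays lay above all WT arrays, with a difference of 0.90 (SE 0.19, limma adjusted p = 0.466). The difference was 1.02 without IL-33KO replicate 2 and 0.53 with the gene's probe sets averaged. Trib3, Mapk8 and Btrc, named after their values were seen, also had no overlap, with differences of 0.48, 0.77 and -0.69. Without IL-33KO replicate 2 these were 0.25, 0.76 and -0.23. Without IL-33KO replicate 1 that of Btrc was -1.15, and without WT replicate 1 that of Mapk8 was 0.47. Trib3 averaged 4.65 in IL-33KO and 4.16 in WT, the latter below the median gene (4.48). In all, 4 of the 10 genes had no overlap, against 18.0% of all genes tested. The list's median was 0.06, with 6 above and 4 below 0 (5 and 5 after median centring).

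The transcription factor p53 induces Bbc3 and Pmaip1. Of 10 genes around it, 3 were above and 6 below 0 (4 and 6 after quantile normalization, 3 and 7 after median centring), with a median of -0.12. The groups did not overlap for 3 of the 10, against 18.0% of all genes tested. Mdm4, which encodes an inhibitor of p53, read 5.21 and 4.55 in IL-33KO and 5.50, 5.74 and 5.73 in WT (difference -0.78, SE 0.24, limma adjusted p = 0.567). Its difference was -0.45 without IL-33KO replicate 2 and -1.10 without IL-33KO replicate 1. The p53 target Cdkn1a and the p53 relative Trp73, named after their values were seen, differed by 0.43 and 0.22 without overlap, and by 0.61 and 0.20 without IL-33KO replicate 2. Without IL-33KO replicate 1 that of Cdkn1a was 0.25, and without WT replicate 1 that of Trp73 was 0.13. Trp73 averaged 4.31 in IL-33KO and 4.08 in WT, below the median gene (4.48).

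Upstream of the family, 17 genes of survival cytokine signalling were split, with 9 above and 8 below 0 (median 0.01). After quantile normalization 7 were above and 10 below 0 (median -0.03). Without overlap, 2 of the 17 were higher and 1 lower in IL-33KO (17.6%, against 18.0% of all genes tested). The STAT5 target Pim1, which encodes a kinase, read 6.05 and 5.97 in IL-33KO and 6.26, 6.40 and 6.59 in WT, with a limma adjusted p of 0.550 and no overlap. Its difference of -0.41 was -0.37 without IL-33KO replicate 2 and -0.15 with its probe sets averaged. Il7r, the gene for the IL-7 receptor chain, read 11.45 and 11.44 in IL-33KO and 11.38, 11.26 and 11.38 in WT. Its difference of 0.10 had no overlap, turned to -0.03 after quantile normalization, and like that of Il2rb (0.69) was singled out after its values were seen. Without IL-33KO replicate 2 they were 0.10 and 0.99, and without IL-33KO replicate 1 that of Il2rb was 0.40. Of 5 NF-kB genes, 1 was above and 4 below 0, with a median of -0.24. The groups did not overlap for 1 of the 5 (20%, against 18.0% of all genes tested). Nfkb2 read 7.42 and 6.91 in IL-33KO and 7.48, 7.58 and 7.55 in WT, a difference of -0.37 (SE 0.18, limma adjusted p = 0.623) without overlap. It was -0.11 without IL-33KO replicate 2 (limma adjusted p = 0.563). Without IL-33KO replicate 1, in a fit that called 1077 genes and whose only knockout array is the one with the high Xist signal, it was -0.63 with a limma adjusted p of 0.0496.

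**Figure D4:**
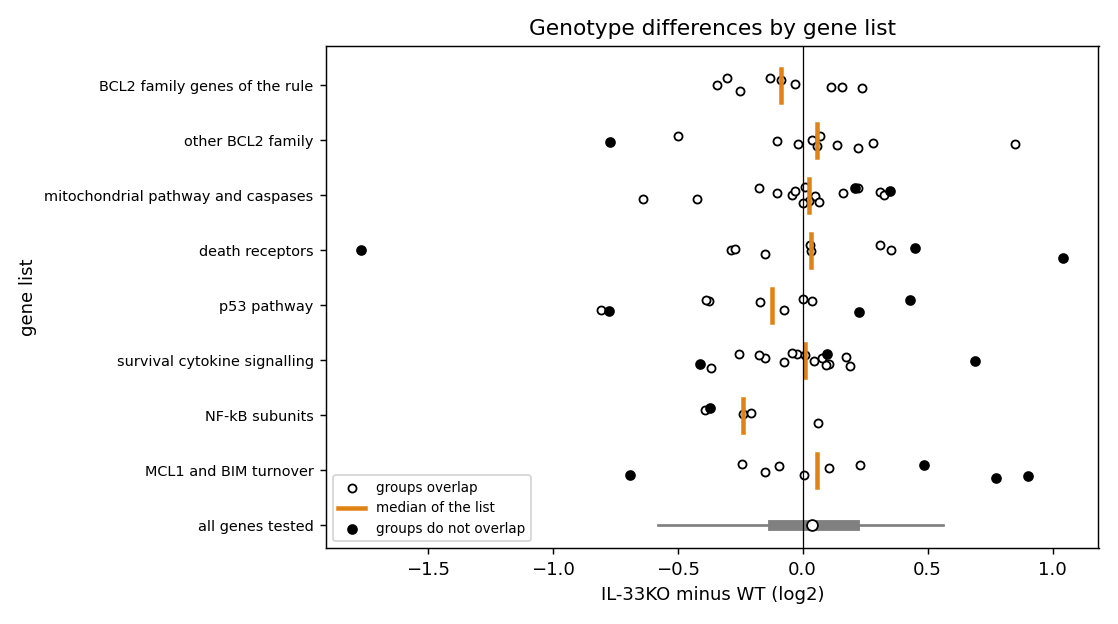
Difference, IL-33KO minus WT (log2, x axis), of each tested gene in the BCL2 family and in 7 lists around it (rows), with filled points where the groups do not overlap and orange bars at list medians; the lowest row gives the median, quartiles and the 5th and 95th percentiles of all genes tested. The 9 family members lie between -0.34 and 0.24, between the 5th and 95th percentiles of all genes (-0.58 and 0.56), and all are open points.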

How the data were processed

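Per the labels' protocols, Trizol was used to extract total RNA of lung ILC2s, which was then labelled with biotin. Per the submitters' processing notes, the authors used Affymetrix Expression Console and RMA. The deposited table holds 1 log2 signal per probe set and array. Software versions, RMA settings and a genome build were not found in the labels. Because RMA usually brings arrays to 1 distribution, a change common to all transcripts would be lost. The labels call the replicates biological. Of 41345 probe sets, 23521 carried 1 symbol, 1814 several and 16010 none.

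After removing the dimmest 25% of genes by mean, 16635 genes were tested in R 4.3.3 with limma 3.58.1 (eBayes moderation, no block, Benjamini-Hochberg adjustment, threshold 0.05). On simulated arrays of 16635 genes with each gene's own spread, the fit recovered 34% of genes changed 2-fold and 62% of those changed 4-fold, and called 9 of 16435 unchanged genes. Named genes were all members and, per other list, up to 4 genes with an unadjusted p below 0.05 and no overlap, or otherwise the gene with the smallest p. The members and lists were chosen with earlier results of these data known. The 12 alternatives were no filter, averaged probe sets, quantile normalization, median centring, eBayes with trend, weighted arrays, a replicate block, and each array left out.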

Additional observations from a re-analysis of the deposited data

How the results depend on the processing

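No member passed the threshold under any of the 12 alternatives, and of 107 member differences so obtained, 102 kept their direction or were 0. Part of that count was fixed in advance. Leaving out the filter and using eBayes with trend could not change a difference. Averaging probe sets changed only those of Bcl2 and Mcl1 among the members. With 1 array left out, Bid ranged from -0.17 to 0.0481 (above 0 without WT replicate 1), Bak1 from -0.0611 (without IL-33KO replicate 1) to 0.37, and Pmaip1 from -0.26 to 0.19 (above 0 without IL-33KO replicate 1 or WT replicate 1). Quantile normalization turned Pmaip1 to 0.0223. Members without overlap numbered 1 with averaged probe sets (Bcl2, 18.3% of all genes), 3 after quantile normalization (30.7%) and 1 after median centring (Bad, 23.2%). In the deposited values the groups of Bcl2, Bcl2l11 and Bad touched at an equal value, so a shift of any size between arrays can separate them. With a WT array left out they numbered 1 to 2 (24.1% to 24.9%), without IL-33KO replicate 1 they numbered 3 of 8 (54.1%), and without IL-33KO replicate 2 they numbered 2 of 9 (47.7%). The cause was not tested. Genes called over all genes were 0, but 0 to 1077 with an array left out: 1077 without IL-33KO replicate 1 and 413 without IL-33KO replicate 2, where the lone array is assumed to vary like the others. Nfkb2 passed in the first of these (-0.63, limma adjusted p = 0.0496, in a range up to 0.793) and Bcl2a1a in the second (-0.97).

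With the replicate block, the difference of Bcl2 was -0.24 and that of Bcl2l11 -0.08, and 0 genes were called. The labels state no pairing, so the numbers were not taken to pair the arrays. Same-numbered arrays had correlations of deviations of -0.05 and 0.14. With 2 IL-33KO arrays the deviations from their mean mirror each other, so these values cannot show or exclude pairing. Of the 27 other genes followed, 22 never reversed. With 1 array left out the exceptions were Bcl2l13 (-0.22 to 0.00903), Bnip2 (-0.0613 to 0.32), Bcl2a1c (-0.21 to 0.28) and Bik (-0.42 to 0.38). Bcl2a1c was also reversed with the replicate block (-0.17), and after quantile normalization Bik (0.0128) and Il7r (-0.0317). Bbc3 was too dim for testing without IL-33KO replicate 1.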
